A study of Mus musculus with 4 samples.

Results

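The genes examined were Sparc and 8 other genes of proteins that sit in or near the extracellular matrix (ECM): Spp1, Tnc, Vcan, Thbs1, Thbs2, Bgn, Fbn1 and Tgfbi. They were picked by symbol, and each had exactly 1 row among the 24527 gene symbols of the read count table. Matricellular proteins are secreted into the matrix but add little to its strength: they bind collagen, growth factors, proteases and cell surface receptors, and so adjust adhesion, migration and matrix assembly. SPARC, the thrombospondins, tenascin-C and osteopontin are the classical members, whereas versican, biglycan, fibrillin-1 and the TGFBI protein are matrix components often discussed with them. In solid tumors these genes are mostly known from fibroblasts, vessel cells and macrophages, and SPARC and osteopontin are known from melanoma cells too.

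The libraries came from B16F10, a mouse melanoma line, in 4 conditions, each with 1 library. The 2D monoculture was B16F10 grown as a monolayer, the 2D co-culture was a monolayer of B16F10 with NIH/3T3 mouse fibroblasts, and the spheroid was a hanging-drop aggregate of both lines. The in vivo tumor grew from B16F10 injected under the skin of female C57BL/6 mice that were 1 year old, per the methods of the study. The methods describe a turbo-GFP-labelled B16F10 line whose green, viable cells were sorted from every culture (the NIH/3T3 cells of the spheroids were red), and describe the tumor cells as sorted as well, whereas the label of the tumor library names snap-frozen tissue. All samples are labelled wild type. The methods give n = 3 for the RNA extraction without saying whether these preparations were pooled, so differences between conditions stand without replicates and carry no p-value.

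Totals lay between 118896900 reads (2D co-culture) and 150028663 reads (spheroid). Levels are given as CPM, the reads of a gene scaled to the size of its library with TMM, where 1 CPM stood for 114 to 162 reads, and every interval is a 95% interval that covers counting error only. Melanocyte markers (8 genes, Sox10 and Tyrp1 among them) summed to between 11420 and 20122 CPM in the 4 libraries, with none at 0. The tumor library also held 2213 CPM over 10 myeloid markers, 265 CPM over 7 endothelial markers, 2728 CPM over 9 fibroblast markers and 4599 CPM over 5 skeletal muscle markers. In such bulk libraries, fewer cells of a type and less RNA per cell cannot be told apart.

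To place the genes, promoter windows were read from the RefSeq annotation on GRCm38.p6, the build named mm10, each spanning 250 bases before a start site and 50 after it. Of the 9 genes, Thbs1 had no window there and was not searched. The other 8 genes had windows. Those of Sparc, Tnc, Bgn and Thbs2 are shown because Sparc followed a course of its own across the libraries, Tnc and Bgn differed most between the 2D cultures, and Thbs2, like Thbs1, was more than 2-fold below the monoculture level in spheroids. Capitals mark matches on either strand to the letters of the TATA-type element TATAAA, the GC box GGGCGG or the CCAAT box. Matches were taken at any distance from the start site, so a marked stretch need not be a working element. Adjoining capitals in Bgn are overlapping matches. The sequences read 5′ to 3′ along the gene:
Sparc, chr11:55420031-55420330, minus strand: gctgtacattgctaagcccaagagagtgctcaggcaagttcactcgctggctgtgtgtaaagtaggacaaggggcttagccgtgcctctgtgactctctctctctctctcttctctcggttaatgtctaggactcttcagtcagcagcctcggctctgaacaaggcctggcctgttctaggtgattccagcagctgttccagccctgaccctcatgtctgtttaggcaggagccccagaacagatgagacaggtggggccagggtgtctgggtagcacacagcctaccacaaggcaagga
Tnc, chr4:64046887-64047186, minus strand: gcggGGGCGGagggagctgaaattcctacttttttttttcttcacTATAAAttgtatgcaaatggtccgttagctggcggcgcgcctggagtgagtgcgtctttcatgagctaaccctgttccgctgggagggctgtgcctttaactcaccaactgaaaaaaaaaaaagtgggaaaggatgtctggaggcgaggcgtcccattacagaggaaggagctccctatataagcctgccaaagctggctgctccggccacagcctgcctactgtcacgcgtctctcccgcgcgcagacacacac
Bgn, chrX:73483351-73483650, plus strand: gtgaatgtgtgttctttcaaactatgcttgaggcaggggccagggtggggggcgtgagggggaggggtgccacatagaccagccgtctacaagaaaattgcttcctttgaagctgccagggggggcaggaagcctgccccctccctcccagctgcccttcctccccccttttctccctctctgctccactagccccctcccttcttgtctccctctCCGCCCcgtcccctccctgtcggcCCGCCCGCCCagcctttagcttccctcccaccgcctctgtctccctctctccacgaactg
Thbs2, chr17:14694213-14694512, minus strand: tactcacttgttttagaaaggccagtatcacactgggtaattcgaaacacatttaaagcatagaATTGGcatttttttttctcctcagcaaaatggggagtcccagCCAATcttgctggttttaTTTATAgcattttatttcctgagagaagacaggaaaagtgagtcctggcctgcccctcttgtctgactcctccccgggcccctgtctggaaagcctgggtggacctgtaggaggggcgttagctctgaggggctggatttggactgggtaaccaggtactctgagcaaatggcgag

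The Sparc window, which lies inside the wider bounds that GENCODE gives the gene, held none of the 7 motifs searched on both strands: these 3, an AP-1 element, a TEAD element and a pair of E-boxes. TATAAA was found in windows of 3 of the 8 genes (Spp1, Thbs2 and Tnc) and in 13.6% of all 32851 windows of this length. GGGCGG was found for 5 of the 8 (Bgn, Fbn1, Tgfbi, Tnc and Vcan), against 35.7% of all windows, and CCAAT for 3 (Spp1, Thbs2 and Vcan), against 37.4%. The 8 genes had 10 windows, and a gene counted when any of its windows held the motif, whereas the shares are per single window. No window of these genes held the other 4 motifs. The AP-1 letters TGANTCA were present in 7.81% of all windows of this length, the TEAD letters GGAATG in 14.7% of them, the E-box letters CATGTG in 14.2% of them, and the E-box form CACGTG in 7.15%.

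Sparc encodes a secreted glycoprotein that binds collagen and calcium and loosens cell adhesion. The gene lies at chr11:55394500-55423183 on the minus strand of GRCm38. It had 2114 CPM in 2D monoculture (interval 2107 to 2122), 1945 CPM in 2D co-culture (1937 to 1953), 1341 CPM in spheroids (1335 to 1347) and 977 CPM in the tumor (972 to 982). With TMM scaling, each library thus differed from the next in this order beyond counting error, and no library lacked the transcript. Counting error leaves out the choice of scaling, on which the small steps depended. With 1 CPM added, the log2 ratio of 2D co-culture to monoculture was -0.003 with upper quartiles. That of spheroid to tumor was 0.10 with total counts. The tumor had the lowest level, with a log2 ratio to the monoculture of -1.11 (-1.12 to -1.10). The log2 ratio to the monoculture was -0.66 for the spheroid (-0.67 to -0.65) and -0.12 for the 2D co-culture (-0.13 to -0.11), so the latter differed least. Of the 9 genes, Sparc alone had its lowest level in the tumor. Between spheroid and tumor its log2 ratio was 0.46 (0.45 to 0.47), and with the median of genes of like GC content and length removed it was -0.01 (with 1 CPM added), so the direction of this small difference depends on that correction.

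**Figure D1:**
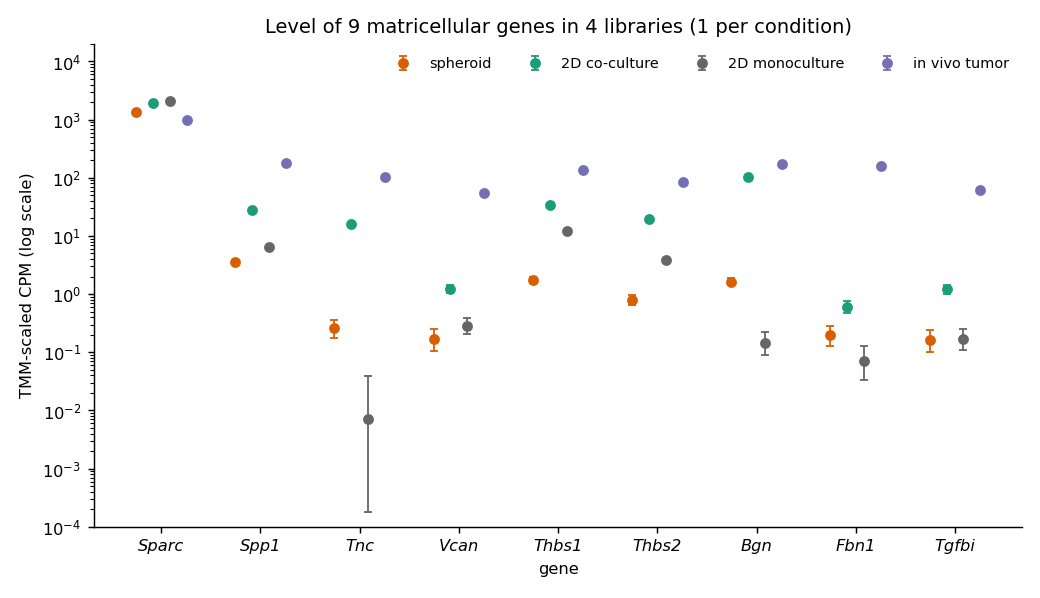
Level of each of the 9 genes in TMM-scaled CPM on a log axis, with 1 point per library and bars for the 95% counting interval. Sparc lies between 977 and 2114 CPM in all 4 libraries, whereas every other gene has its highest point in the tumor.

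Across the 4 libraries, the genes whose profile was nearest to that of Sparc were Polr3e, Gtf2i, Rundc3a, Kdm3b and C1ql3, out of 9579 genes averaging 10 CPM or more. Likeness was measured as the largest difference in any library between profiles of log2(CPM + 1) centred on their own mean, a scale on which values under 1 CPM lie close together, and it was 0.04 for Polr3e and 0.08 for C1ql3. With 4 points per profile, many genes lie close to any given course.

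Levels of different genes can be compared only per transcript length. Per kb of the longest annotated transcript, Sparc was the first of the 9 in every library, at 583 CPM per kb in spheroids, 846 in 2D co-culture, 919 in 2D monoculture and 425 in the tumor. The other 8 together came to 3.52 CPM per kb in spheroids, 69.3 in 2D co-culture, 7.12 in 2D monoculture and 275 in the tumor. Sparc therefore made up 99.4% of the summed level of the 9 in spheroids, 99.2% in monoculture, 92.4% in 2D co-culture and 60.7% in the tumor (54.1% when the merged length of all exons is used). In the tumor Spp1 followed, and Vcan was last at 4.39 CPM per kb.

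**Figure D2:**
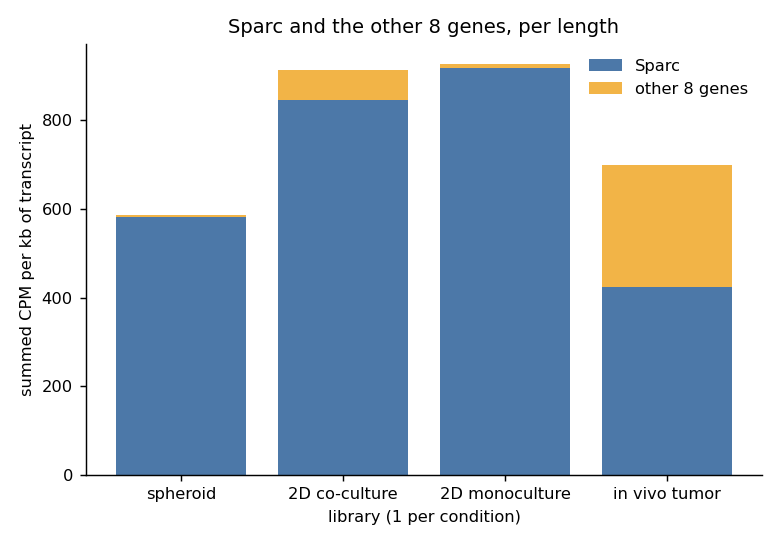
Summed level of the 9 genes in CPM per kb of transcript, as bars from 0 for each of the 4 libraries, split into Sparc and the other 8. The other 8 genes add 275 CPM per kb in the tumor and 3.52 in spheroids.

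Thbs1 and Thbs2 encode thrombospondins, large trimeric glycoproteins that bind CD36, CD47 and integrins and restrain vessel growth, and thrombospondin-1 also activates latent TGF-beta. Thbs1 lies at chr2:118111876-118127133 on the plus strand and Thbs2 at chr17:14665500-14694235 on the minus strand. Thbs1 had 1.76 CPM in spheroids, 12.1 CPM in 2D monoculture, 33.9 CPM in 2D co-culture and 136 CPM in the tumor. Thbs2 had 0.793, 3.87, 19.8 and 83.8 CPM in the same order. Both genes were lowest in spheroids, below even the monolayer without fibroblasts. The log2 ratio between spheroid and monoculture was -2.77 for Thbs1 (-2.98 to -2.58) and -2.29 for Thbs2 (-2.60 to -1.99), and that of 2D co-culture to 2D monoculture was 1.49 (1.41 to 1.57) and 2.35 (2.22 to 2.49). Spheroid and 2D co-culture, which were set up with the same pair of cell lines, had a log2 ratio of -4.27 for Thbs1 (-4.46 to -4.08) and -4.64 for Thbs2 (-4.93 to -4.36). The profile nearest to that of Thbs1 was Emp1, at 0.31, and those nearest to Thbs2 were Cav1 and Col8a1, at 0.36 and 0.41. With 1 CPM added, Thbs2 came to -1.44 between spheroid and monoculture, and to -0.92 with the correction for GC content and length as well, short of 2-fold.

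Spp1 encodes osteopontin, a phosphoprotein that binds CD44 and alpha-v integrins through an RGD sequence and is a known product of macrophages and of many tumors. It lies at chr5:104435118-104441050 on the plus strand. Spp1 had 3.55 CPM in spheroids (3.24 to 3.88), 6.42 CPM in 2D monoculture (6.01 to 6.85), 28.0 CPM in 2D co-culture (27.0 to 29.0) and 179.7 CPM in the tumor (178 to 182). The co-culture level was 4.36 times that of the monoculture and the tumor level 28.0 times, whereas the spheroid was lower, with a log2 ratio of -0.85 (-1.02 to -0.69). Genes with the nearest course were Col8a1 and Tagln, at 0.23 and 0.31.

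Tnc encodes tenascin-C, a hexameric glycoprotein of remodelling matrix, and Bgn encodes biglycan, a small leucine-rich proteoglycan that binds collagen and can signal through toll-like receptors. Tnc lies at chr4:63959785-64047015 on the minus strand and Bgn at chrX:73483602-73495933 on the plus strand. Tnc had 1 read in 2D monoculture, 35 in spheroids, 1867 in 2D co-culture and 16751 in the tumor, or 0.00702, 0.257, 16.3 and 103 CPM. Bgn had 21, 222, 11834 and 28381 reads in the same order, or 0.147, 1.63, 103 and 175 CPM. Both were barely detected in the monolayer of B16F10 alone, and the co-culture library held far more of them than the spheroid did. The log2 ratio of 2D co-culture to 2D monoculture was 9.45 for Bgn (8.84 to 10.15) and 11.18 for Tnc (8.70 to 16.49), the width of the latter reflecting its single read. Against the tumor, the 2D co-culture reached 59.1% of the level for Bgn, the highest share of any of the 8 genes other than Sparc, and 15.8% for Tnc. In spheroids these shares were 0.933% and 0.249%. The ratio of spheroid to 2D co-culture was -5.99 for both on the log2 scale (intervals -6.18 to -5.79 for Bgn and -6.51 to -5.51 for Tnc). The profiles nearest to Tnc were those of Tagln2 and Col6a3, at 0.26 and 0.29, and those nearest to Bgn were Fbln2 and Lox, at 0.59 and 0.74.

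Vcan encodes versican, a large chondroitin sulfate proteoglycan that binds hyaluronan, Fbn1 encodes fibrillin-1, the backbone of microfibrils that store latent TGF-beta, and Tgfbi encodes a TGF-beta-induced protein that links collagen to integrins. They lie at chr13:89655312-89742509 (Vcan, minus strand), chr2:125300594-125507993 (Fbn1, minus strand) and chr13:56609523-56639562 (Tgfbi, plus strand). Tumor levels were 54.5 CPM for Vcan, 161 CPM for Fbn1 and 62.6 CPM for Tgfbi. No culture came above 1.22 CPM for any of them. Vcan had 0.169 CPM in spheroids, 0.288 CPM in 2D monoculture and 1.22 CPM in 2D co-culture. Fbn1 had 0.198, 0.0702 and 0.611 CPM, and Tgfbi 0.162, 0.168 and 1.21 CPM, in that order. For Vcan and Tgfbi, spheroid and monoculture did not differ beyond counting error: their log2 ratios were -0.77 (-1.57 to 0.0019) and -0.06 (-0.96 to 0.84). Vcan, with 23 reads in spheroids and 41 in monoculture, came to -0.14 in that comparison with 1 CPM added. With the correction for GC content and length as well it came to 1.01, so its direction is not settled. In 2D co-culture the log2 ratios to the monoculture were 2.09 for Vcan (1.58 to 2.63), 3.12 for Fbn1 (2.16 to 4.24) and 2.84 for Tgfbi (2.21 to 3.53), all from 140 reads or fewer. Between spheroid and tumor Fbn1 had the widest gap of the 9 genes, with a log2 ratio of -9.66 (-10.27 to -9.12). The exons of Fbn1 share 2442 bases with Gm9913 on the other strand, Thbs1 208 bases with Gm29233 and Tnc 176 bases with 8030451A03Rik, and Spp1 shares 309 bases with Gm42793 on its own strand. The labels name no strand-specific counting, so reads of these pairs cannot be told apart.

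**Figure D3:**
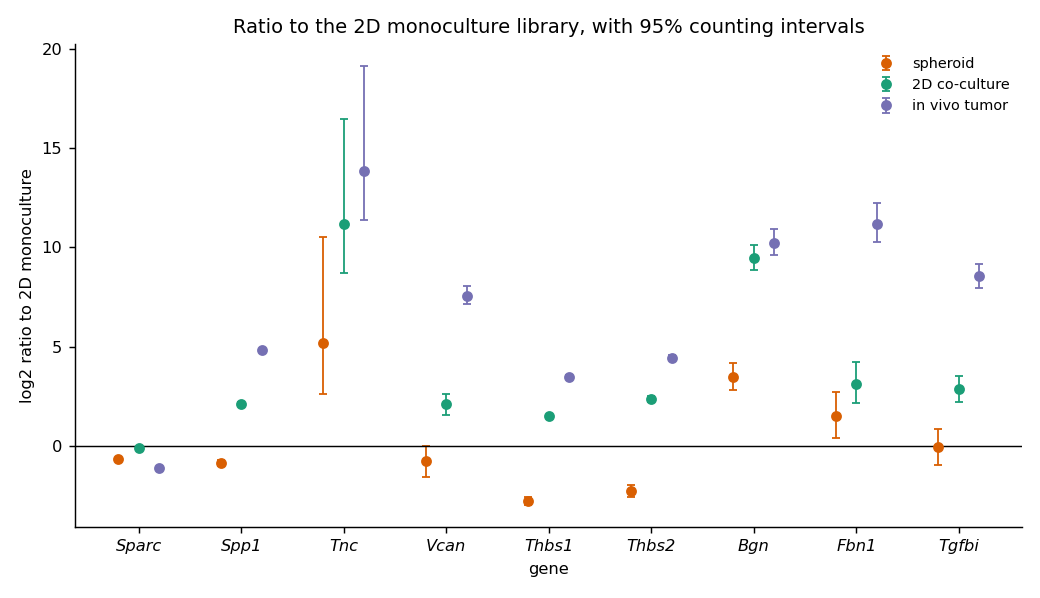
Log2 ratio of spheroid, 2D co-culture and in vivo tumor to the 2D monoculture for each gene, with nothing added to the values and bars for the 95% counting interval. Tumor points lie above 0 for 8 genes and below 0 for Sparc (-1.11), and spheroid points of Thbs1 (-2.77) and Thbs2 (-2.29) lie below 0.

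The order of the 4 libraries was tumor, 2D co-culture, 2D monoculture and spheroid for 5 genes (Spp1, Vcan, Thbs1, Thbs2 and Tgfbi), and tumor, 2D co-culture, spheroid and 2D monoculture for 3 (Tnc, Bgn and Fbn1). Sparc had the order monoculture, co-culture, spheroid and tumor. Of 27 neighbouring pairs in these orders, 25 were apart beyond counting error with TMM scaling, the exceptions being spheroid and monoculture for Vcan and Tgfbi.

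A gene was called different when its CPM, with 1 added, differed by more than 2-fold, and each count is set beside the share of all 12728 genes averaging 1 CPM or more. All 9 genes had a mean of at least 10 CPM over the 4 libraries, but only 6 had a mean of at least 1 CPM over the cultures, so Vcan, Fbn1 and Tgfbi passed through the tumor library. In the tumor 8 of the 9 were higher than in 2D monoculture, against 14.8% of all genes, with a median log2 ratio of 5.43 over the 9 and -0.14 over all genes. The remaining gene, Sparc, was lower by more than 2-fold with TMM scaling, as were 18.2% of all genes. It came to -0.87 with total counts, -0.86 with upper quartiles and -0.86 with the correction for GC content and length, all within 2-fold. In 2D co-culture 5 were higher than in monoculture (Spp1, Tnc, Thbs1, Thbs2 and Bgn), against 3.79% of all genes, with medians of 1.42 and 0.01, and 0 were lower (9.51% of all genes).

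The spheroid differed from the monoculture in fewer of these genes. There 1 gene was higher, Bgn, against 11.2% of all genes, and 2 were lower, Thbs1 and Thbs2, against 17.9%, with a median of -0.14 over the 9. Counts this small lie near the shares of all genes. Against the 2D co-culture, the spheroid was lower for 5 genes (Spp1, Tnc, Thbs1, Thbs2 and Bgn) and higher for 0, whereas 8.46% of all genes were lower and 9.54% higher. The medians were -2.67 over the 9 and -0.01 over all genes. Against the tumor, the spheroid was lower for 8 genes (27.6% of all genes) and higher for 0 (26.8%), with a median of -5.63. The 2D co-culture was lower than the tumor for 7 genes (20.9% of all genes) and higher for 0 (18.8%), with a median of -2.59. Sparc lay just within 2-fold there, at 0.99, and Bgn lay within it with TMM scaling and beyond it with total counts (-1.02) and with the GC and length correction (-1.01). These comparisons share libraries and are not independent of each other.

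Markers of other cell types differed between the same libraries. Relative to the tumor, the 8 genes without Sparc had a median level of 0.621% in spheroids, 15.7% in 2D co-culture and 0.399% in 2D monoculture. The 9 fibroblast markers had medians of 0.582%, 11.8% and 0.353%, with a summed level of 36.5 CPM in spheroids, 679 CPM in 2D co-culture, 17.6 CPM in monoculture and 2728 CPM in the tumor, and none of them was at 0 reads in any library. Among these, Col1a2, a collagen I chain, had 514 CPM in 2D co-culture, 82.7% of its tumor level, and Thy1 had 12.5 CPM, 25.4% of it. Lum and Dcn, proteoglycans of the same family as biglycan, stayed at 0.283% and 1.75% of the tumor level in 2D co-culture. In the same library Bgn stood at 59.1% and Fbn1 at 0.380%. Pdgfrb, a receptor of fibroblasts and pericytes, exceeded its tumor level in both mixed cultures (27.7 and 23.5 against 18.5 CPM). The monolayer of B16F10 alone also held Pdgfrb, at 11.02 CPM or 59.6% of its tumor level. In spheroids Pdgfrb made up 23.5 of the 36.5 CPM of the fibroblast markers. The part of fibroblasts and pericytes in the values was not tested.

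Skeletal muscle markers had a median of 0.130% of the tumor level in spheroids (5 genes, 0.124% to 1.35%), 0.195% in 2D co-culture (0.136% to 0.569%) and 0.0294% in monoculture, where Myh4 was at 0 reads. Myeloid markers had medians of 0.122%, 0.193% and 0.0250%, and endothelial markers 0.167%, 0.164% and 0.142%. Cd68 was an exception among the myeloid genes, at 27.5 CPM in monoculture. The 5 pericyte markers summed to 45.7 CPM in spheroids, 28.4 CPM in 2D co-culture, 13.1 CPM in monoculture and 136 CPM in the tumor. Of these sums, Notch3 alone had 43.57 CPM in spheroids, where Abcc9 was at 0 reads, and Cspg4 had 20.99 CPM in 2D co-culture. The pericyte medians ran the other way, at 0.108%, 0.230% and 0.967% of the tumor level in spheroids, 2D co-culture and monoculture. The 3 adipocyte markers summed to 1.17, 1.19, 0.639 and 722 CPM in spheroids, 2D co-culture, monoculture and the tumor. In spheroids, Fbn1 (0.123%), Tnc (0.249%), Tgfbi (0.258%) and Vcan (0.310%) lay within the range of the single endothelial markers (0.0729% to 0.364%), with 22 to 35 reads each. Spp1 (1.97%), Thbs1 (1.30%), Thbs2 (0.946%) and Bgn (0.933%) stood above that range. Thbs1, Thbs2 and Bgn nevertheless lay within the spheroid range of the single skeletal muscle markers (0.124% to 1.35%), and Spp1 lay above it. The upper end of the muscle range was set by Mylpf. The myeloid marker Cd68 stood above each of these genes in spheroids. Which genes stood above a marker range thus depended on the list chosen. The source of the muscle and myeloid reads in the culture libraries was not tested.

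**Figure D4:**
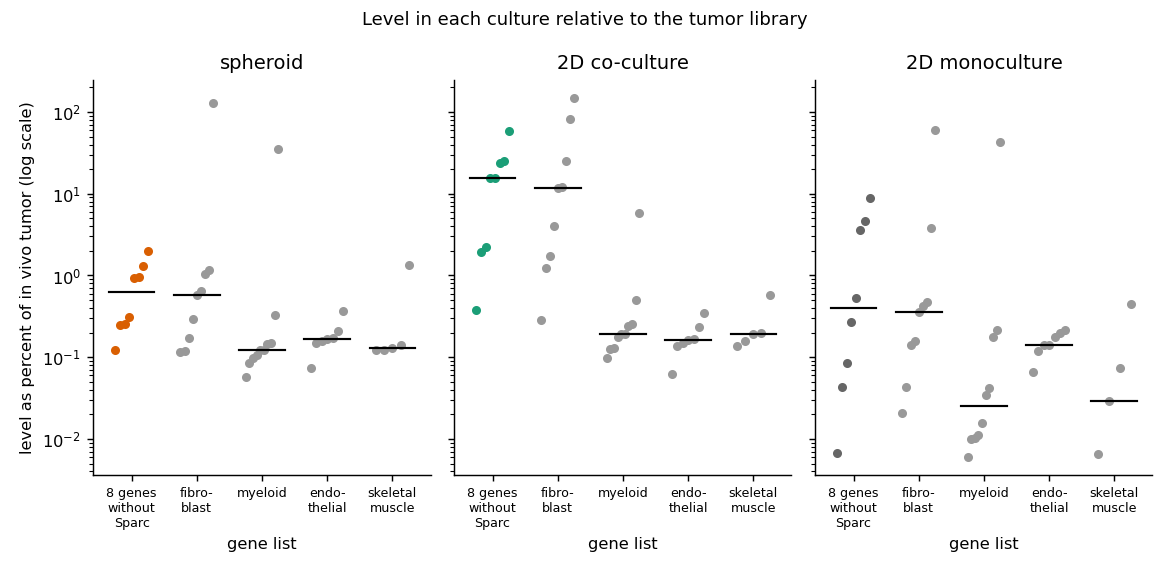
Level of each gene in each culture as percent of its level in the tumor library, on a log axis, for the 8 genes without Sparc (first column of each panel) and for fibroblast, myeloid, endothelial and skeletal muscle markers, with 1 point per gene and a line at the median. The 8 genes have a median of 15.7% in 2D co-culture and 0.621% in spheroids, and genes at 0 reads are not drawn.

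Of 50 other genes of the same matrix families, all with a row in the table, 32 had a mean of at least 1 CPM. In the tumor 25 of the 50 were higher than in monoculture and 6 lower by more than 2-fold, in 2D co-culture 9 and 2, and in spheroids 8 and 4, with median log2 ratios of 1.02, 0.04 and 0.00. The shares of all genes were 14.8% and 18.2% in the tumor, 3.79% and 9.51% in 2D co-culture, and 11.2% and 17.9% in spheroids. For spheroids, the part of the 50 that was higher thus lay above the share of all genes, and the part that was lower lay below it. The 50 include 18 genes under the mean of 1 CPM that the shares rest on, and none of the 8 higher in spheroids was among these. Whether the 50 depart from other genes was not tested. The nearest relatives of Sparc differed from it: Sparcl1 (hevin) had 118 CPM in monoculture, 21.5 CPM in spheroids, 26.5 CPM in 2D co-culture and 413.5 CPM in the tumor. Fstl1, another secreted protein with a SPARC-type domain, had 8.96, 34.6, 39.8 and 311 CPM in that order. Postn (periostin), a relative of Tgfbi, had 476 CPM in the tumor and at most 3.68 CPM in the cultures. The tumor was higher than the monoculture for 6 of 6 small leucine-rich proteoglycans besides biglycan, with a median log2 ratio of 4.95, and only Prelp among them was more than 2-fold higher in spheroids than in monoculture (19.1 and 3.08 CPM).

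The CCN proteins, matricellular regulators of adhesion, had no common course. Cyr61 (CCN1) had 1094 CPM in spheroids, 589.7 CPM in 2D co-culture, 250.3 CPM in monoculture and 74.7 CPM in the tumor, a ratio of spheroid to monoculture of 2.13 (2.11 to 2.14) on the log2 scale. Ctgf (CCN2) had 6.32, 26.3, 6.93 and 71.1 CPM in the same order, and so was highest in the tumor. Wisp1 (CCN4) had 24.8, 36.2, 55.6 and 10.7 CPM, and Wisp2 (CCN5) had 0.154, 10.5, 0.0211 and 5.59 CPM. Among microfibril and elastic fibre genes, 4 of 13 were higher in spheroids than in monoculture and 1 was lower, against 11.2% and 17.9% of all genes. Fbln5, which helps elastin assemble, had 318 CPM in spheroids and 96.2 CPM in monoculture, and Fbln1 266 and 105 CPM. Fbln2 and Efemp1, of the same fibulin family, had 50.3 and 17.2 CPM in 2D co-culture and at most 0.536 CPM in the other cultures. Bcan (brevican), a relative of versican, had its lowest level where versican had its highest, with 34.4 CPM in spheroids, 16.1 CPM in monoculture, 6.54 CPM in 2D co-culture and 0.154 CPM in the tumor. The 4 genes of the bone sialoprotein family to which Spp1 belongs did not reach 1 CPM in any library.

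Of 15 receptors of these proteins, 14 had a mean of at least 1 CPM. In spheroids, 3 were higher than in monoculture by more than 2-fold and 2 lower, in 2D co-culture 1 and 0, and in the tumor 3 and 4. With 15 genes, these counts lie near the shares of all genes (11.2% and 17.9%, 3.79% and 9.51%, and 14.8% and 18.2% in that order). Itgb3, the beta-3 chain that pairs with alpha-v to bind osteopontin and thrombospondin, had 458 CPM in spheroids, 62.8 CPM in 2D co-culture, 117 CPM in monoculture and 33.1 CPM in the tumor. Its log2 ratio of spheroid to monoculture was 1.97 (1.94 to 1.99). Itga9, a tenascin-C and osteopontin receptor chain, had 103, 42.4, 26.8 and 48.7 CPM, and Sdc4, a heparan sulfate co-receptor, 93.9, 63.8, 30.7 and 42.0 CPM. Itgb1, the common beta-1 chain, was lower in spheroids, with 189.6 CPM against 546 CPM in monoculture and 789.6 CPM in the tumor. Itgav had 94.7 CPM in spheroids and 169 CPM in monoculture, and Cd44 lay between 249 and 311 CPM in all 4 libraries. Cd36, the thrombospondin receptor of vessel cells, macrophages and adipocytes, had 193 CPM in the tumor and at most 0.969 CPM in the cultures, and Stab1, a scavenger receptor for SPARC on macrophages, had 92.9 CPM and at most 0.454 CPM.

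**Figure D5:**
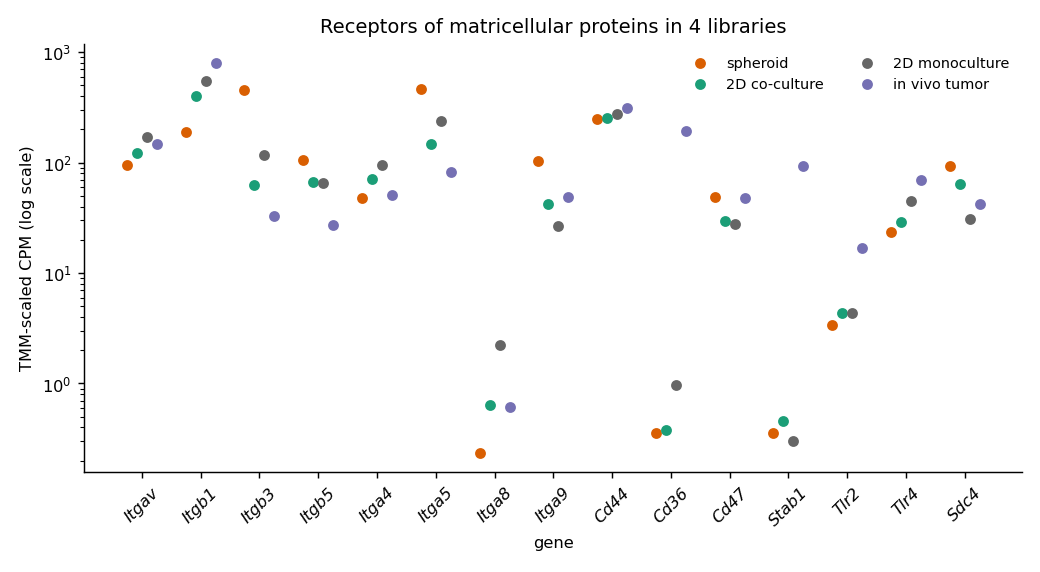
Level of 15 receptor genes in TMM-scaled CPM on a log axis, with 1 point per library. Itgb3 is highest in spheroids (458 CPM), and Cd36 and Stab1 reach 193 and 92.9 CPM in the tumor alone.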

How the data were processed

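RNA of 4 libraries, 1 per condition, was enriched with oligo(dT) and sequenced as paired reads of 150 bases. Per the labels, the processing notes name Trimmomatic, STAR, featureCounts and the mm10 build, without versions. The authors deposited whole read counts per refGene symbol, not normalized.

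CPM values were computed from these counts with TMM factors of edgeR 4.0.16 (R 4.3.3). TMM factors lay at 1.16 (tumor), 0.984 (monoculture), 0.963 (2D co-culture) and 0.908 (spheroid). Size factors of DESeq2 1.42.0, total counts and upper quartiles were alternatives, as were pseudocounts of 0.1 and 5 CPM, thresholds of 1.5-fold and 3-fold, and removal of the median log2 ratio in bins of GC content (10) and transcript length (10) (GENCODE M21, with values for 99.5% of genes). Other steps used Python 3.11.15, numpy 2.4.6, pandas 2.3.3, scipy 1.17.1 and matplotlib 3.10.9. Intervals are exact Clopper-Pearson intervals for CPM and exact binomial intervals for log2 ratios. Log2 ratios of single genes have nothing added unless stated, while calls and medians use 1 CPM. The interval and the calls were tested on simulated counts with Poisson error only. For the calls, equal numbers of genes with 10 CPM or more in monoculture were raised and lowered by a fixed fold. The calls were thus not tested for genes near 0 or for the large differences seen in the tumor. No test across conditions was made, and the NOISeq and GFOLD comparisons of the study were not repeated, since simulated replicates give no replicate check.

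All 9 genes are named. Of the lists, genes with at least 10 CPM in any library and all markers could be named, and for likeness the 5 profiles nearest to Sparc and the 2 nearest to each other gene, not all of which are reported here. The genes and lists were chosen with earlier results of these data known, and the merged exon length as an alternative was chosen after seeing the data.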

Additional observations from a re-analysis of the deposited data

How the results depend on the processing

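No paired analysis was possible because every group is a single library. A count that moved by up to 1.5 times, or a median by up to 1.5-fold, was read as unmoved. With DESeq2 size factors every count and median was unmoved in this sense. A minimum of 10 CPM could not change the counts, since all 9 genes pass it, but lowered the share of all genes higher in the tumor than in monoculture to 7.14%. Sparc, lower in the tumor than in the monoculture, was no longer called with total counts, upper quartiles, 3-fold or the GC and length correction (0 genes lower in each). Between spheroid and monoculture, 2 genes were higher with 0.1 CPM added or the correction and 0 with 5 CPM or 3-fold, and 1 was lower with 5 CPM, 3-fold or the correction and 4 at 1.5-fold. In the 2D co-culture against the monoculture, 8 were higher with 0.1 CPM or at 1.5-fold, with a median of 2.11 (0.1 CPM). Against the 2D co-culture, 8 were lower in the spheroid with 0.1 CPM, and the median was -1.95 with 5 CPM. Against the tumor, 1 gene was higher in the 2D co-culture at 1.5-fold, and the median of the spheroid was -6.66 with 0.1 CPM and -4.36 with 5 CPM. The median of tumor to monoculture was 7.14 and 3.71. Larger pseudocounts shrink ratios of genes near 0 by construction, and a stricter or looser fold threshold can only lower or raise a count. For the other moves the cause was not tested. Total counts moved the median of all genes by -0.33 between spheroid and tumor and by 0.22 between tumor and monoculture. For single genes, the shift of the log2 ratio with 1 CPM added was set against the counting interval of the ratio with nothing added. That interval is wide for genes near 0, so these pass easily. By this measure, 49 of 54 ratios stayed in place with DESeq2 size factors, 40 with upper quartiles, 37 with total counts and 23 with the correction. Of 12 shares of all genes, 7 moved with every gene that has a read.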

Other observations

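Proteases that cut these proteins were a further group not described so far. Of 12 matrix proteases, 7 were higher in the tumor than in 2D monoculture by more than 2-fold and 1 was lower, 2 were higher and 0 lower in 2D co-culture, and 0 were higher and 3 lower in spheroids. The shares of all genes were 14.8% and 18.2% in the tumor, 3.79% and 9.51% in 2D co-culture, and 11.2% and 17.9% in spheroids, and the spheroid counts lie near them. Adamts1, which cleaves versican and thrombospondins, was the gene lower in the tumor: it had 477 CPM in monoculture, 347 CPM in 2D co-culture, 141 CPM in spheroids and 94.4 CPM in the tumor. Its log2 ratio of spheroid to monoculture was -1.75 (interval -1.78 to -1.73). Mmp2, a gelatinase known from fibroblasts, had 31.0 CPM in 2D co-culture and 28.9 CPM in the tumor, against 9.13 CPM in spheroids and 7.78 CPM in monoculture. Mmp14, the membrane-bound activator of Mmp2, had 514 CPM in spheroids, 426 CPM in 2D co-culture, 329 CPM in monoculture and 173 CPM in the tumor.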
